A study of Mus musculus with 8 samples.

Results

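The neutrophil granule genes were examined as 10 genes chosen by name, out of 28014 genes counted, in single cells from the aorta-gonad-mesonephros region (AGM) of mouse embryos at embryonic day 10.5. Mpo (myeloperoxidase), Elane (neutrophil elastase), Prtn3 (proteinase 3) and Ctsg (cathepsin G) formed the primary set of 4. S100a8, S100a9, Camp (cathelicidin), Ngp (neutrophilic granule protein), Ltf (lactoferrin) and Lcn2 (lipocalin 2) formed the secondary and late set of 6, called late here. The rule used no measured value, and each gene was set out in all 10 deposited cell types and both genotypes.

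Neutrophils fill their granules in sequence. Primary (azurophil) granules, which carry the peroxidase and the serine proteases, are made first at the promyelocyte stage, and secondary (specific) granules with lactoferrin, cathelicidin and lipocalin follow once the transcription factor C/EBPε is active. S100a8 and S100a9 form calprotectin, an abundant cytosolic protein of neutrophils and some monocytes. At this stage of gestation erythro-myeloid progenitors (EMP) from the yolk sac are a source of the first granulocytes, whereas AGM endothelium produces blood stem cell precursors by endothelial-to-hematopoietic transition (EHT).

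CD31+ cells had been sorted and profiled by CITE-seq, in which each cell yields counts of transcripts, as unique molecular identifiers (UMIs), together with counts of antibody-bound barcodes. The 5 WT libraries were labelled C57BL/6. The cells of WT 5 carried a different name prefix from those of the other WT libraries, and whether its embryos bore the floxed allele without Cre could not be settled, so WT follows the label there. The 3 Meis1-knockout libraries came from Meis1-flox/VE-Cre embryos, in which Cre driven by the VE-cadherin promoter removes exon 8 of Meis1 in endothelium and so in its blood progeny. Each library pooled 2 to 5 embryos, so a library, not a cell, is the replicate, and cells without Cre activity were not separated from the others.

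The table held 15168 cells, 8423 WT and 6745 Meis1-knockout. Median UMIs per cell were 26572 to 28553 in WT 1 to 4, 12721 in WT 5 and 9612 to 14895 in the knockout, so depth and genotype were largely aligned. Meis1 ran from 13.7 to 26.5 CPM (counts scaled to a library total of 1000000 UMIs) in WT libraries and from 9.16 to 13.8 CPM in the knockout; such tags lie near the 3′ end, outside the deleted exon, and do not check the deletion. The same 33 barcodes occurred in more than 1 library, of 15135 distinct barcodes. The cells named Myeloid carried macrophage genes, whose summed level was 1454 to 3157 CPM (WT) and 1979 to 2637 CPM (knockout), and the neutrophil surface gene Ly6g had 0 UMIs in the classified Myeloid cells of the 3 knockout libraries. The name Myeloid is therefore used as the label of a mixed cluster.

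Transcripts of the granule genes lay almost wholly in EMP and Myeloid cells. Of all UMIs of a gene, these clusters held 96.9% for Mpo, 98.3% for Elane, 96.8% for Prtn3, 96.4% for Ctsg, 99.3% for S100a8, 99.4% for S100a9, 99.2% for Camp, 98.8% for Ngp and 100% for Lcn2. Ltf was the exception, with 53.3% of 30 UMIs there. Over the 8 libraries Mpo averaged 707 ± 137 CPM (SD) in EMP, 264 ± 116 CPM in Myeloid, 62.3 ± 18.4 CPM in EHT and 1.83 ± 1.35 CPM in endothelium, which pools the arterial and venous clusters. Prtn3 gave 933 ± 228, 703 ± 223, 140 ± 22.5 and 2.15 ± 1.99 CPM in the same populations. Mpo and Prtn3 thus reached into the EHT cluster. Elane had 5 WT and 2 knockout UMIs there, and Ctsg had 0 in both. S100a8 averaged 126 ± 192 CPM in EMP and 199 ± 190 CPM in Myeloid but 0.563 ± 0.909 CPM in EHT. Levels were compared within a gene, not between genes, because tags were not scaled to length or capture.

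**Figure D1:**
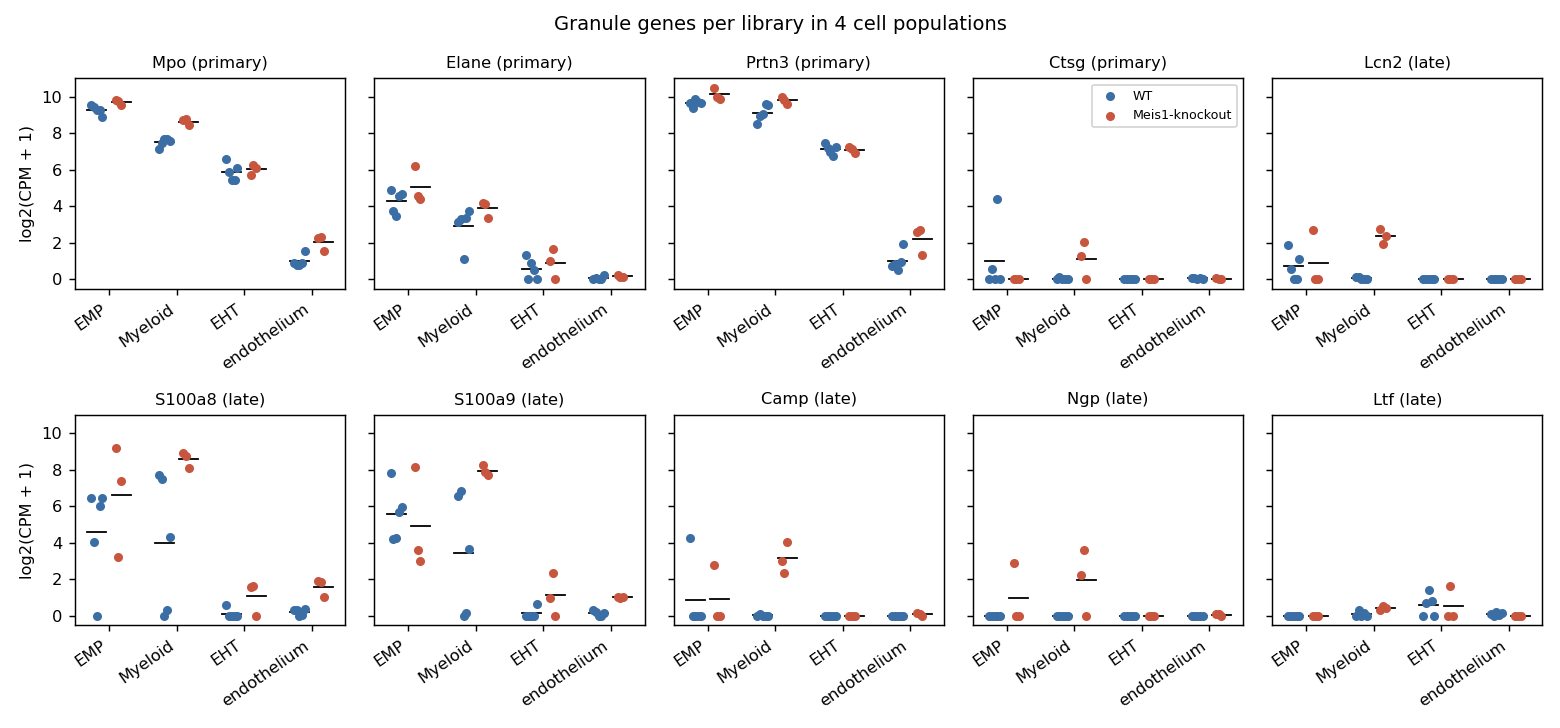
Level of each granule gene as log2(CPM + 1) per library (points; horizontal bars are group means) in EMP, Myeloid and EHT cells and in pooled endothelium, with WT in blue and Meis1-knockout in red. Mpo and Prtn3 step down from EMP to endothelium with little spread, whereas S100a8 and S100a9 range from 0 to 581 CPM between libraries of the same cluster.

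The order of the cell types began with EMP and then Myeloid for each primary gene. For Ctsg this order of means rested on few cells, with 109 of its 114 EMP UMIs in 1 cell of WT 4. Mpo, Elane and Prtn3 were each higher in EMP than in Myeloid in 8 of 8 libraries, with mean differences in log2(CPM + 1) of 1.5 ± 0.49, 1.29 ± 0.72 and 0.45 ± 0.38 (SD, n = 8). Mpo and Prtn3 were in turn higher in Myeloid than in EHT in 8 of 8 libraries, by 2.01 ± 0.76 and 2.27 ± 0.64. By an exact two-sided sign-flip permutation test each of these had p = 0.00781, the smallest that 8 libraries allow, and an adjusted p of 0.117. Over all genes and neighbours 0 of 90 pairs, 0%, passed an adjusted p of 0.1 and 12 had an unadjusted p below 0.05, so no neighbours were separated at that threshold by this test.

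Promoters of the 5 best-covered genes are shown because most of the values given here rest on these genes, 3 of them primary and 2 late. Each line gives the 250 bases before the start of the gene, 5′ to 3′ on the gene's strand, from RefSeq on GRCm38.p6, the mm10 build. Capitals mark GAGGAA, a core that ETS factors such as PU.1 bind, TTNNGNAAT, a C/EBP core, TGTGGT, a RUNX core, and TATAAA, the TATA box, each on either strand.
Mpo, chr11:87793534-87793783, plus strand: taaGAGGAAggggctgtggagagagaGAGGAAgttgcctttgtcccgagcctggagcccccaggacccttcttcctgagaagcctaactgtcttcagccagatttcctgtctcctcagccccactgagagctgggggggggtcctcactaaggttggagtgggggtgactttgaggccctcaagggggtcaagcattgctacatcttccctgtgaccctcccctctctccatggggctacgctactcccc
Elane, chr10:79886062-79886311, plus strand: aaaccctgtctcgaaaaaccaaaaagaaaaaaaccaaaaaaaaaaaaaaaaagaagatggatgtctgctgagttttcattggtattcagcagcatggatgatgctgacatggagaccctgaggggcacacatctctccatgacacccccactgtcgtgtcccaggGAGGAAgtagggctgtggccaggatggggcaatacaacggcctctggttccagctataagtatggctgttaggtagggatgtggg
Prtn3, chr10:79879417-79879666, plus strand: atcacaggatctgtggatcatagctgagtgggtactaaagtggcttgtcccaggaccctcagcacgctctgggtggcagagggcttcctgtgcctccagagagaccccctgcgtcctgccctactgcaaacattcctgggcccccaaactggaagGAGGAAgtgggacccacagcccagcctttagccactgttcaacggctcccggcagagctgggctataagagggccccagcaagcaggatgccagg
S100a8, chr3:90668821-90669070, plus strand: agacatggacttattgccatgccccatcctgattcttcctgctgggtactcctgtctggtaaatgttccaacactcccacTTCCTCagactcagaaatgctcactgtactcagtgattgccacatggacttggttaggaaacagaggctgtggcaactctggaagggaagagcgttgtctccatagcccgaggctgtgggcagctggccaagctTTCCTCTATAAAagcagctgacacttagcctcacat
S100a9, chr3:90695722-90695971, minus strand: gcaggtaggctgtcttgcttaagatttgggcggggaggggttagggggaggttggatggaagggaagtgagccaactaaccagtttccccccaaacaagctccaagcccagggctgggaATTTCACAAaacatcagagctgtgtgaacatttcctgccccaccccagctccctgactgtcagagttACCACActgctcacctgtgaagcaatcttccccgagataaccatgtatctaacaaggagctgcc

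All 10 genes matched the promoter table. GAGGAA stood in all 4 primary promoters, 247 and 224 bases before the start in Mpo, 85 in Elane, 95 in Prtn3 and 216 in Ctsg. It also stood in 3 of the 6 late promoters, S100a8, Ltf and Lcn2, and in 23.3% of all 32851 promoters of this length. TTNNGNAAT stood in 0 of the 4 primary promoters and in 3 of the 6 late ones, S100a9 at 131, Ngp at 139 and Ltf at 75 bases before the start, against 10.2% of all promoters. TGTGGT was found in Ctsg and S100a9 and in 14% of promoters, and TATAAA in Ctsg and S100a8 and in 12.4%. In S100a8 the TATAAA at 30 bases directly adjoined a GAGGAA read on the other strand, with no shared base. These letters were chosen with the expression known and describe the sequence only. Prtn3 and Elane are neighbours on chromosome 10, with 3137 bases between them, and S100a8 and S100a9 lie 22595 bases apart on chromosome 3.

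Whether each gene was higher in EMP or in Myeloid was also tested gene by gene with edgeR, pairing the clusters within libraries. Of the 10 genes 5 passed the filter on low counts. Mpo was 2.81-fold lower in Myeloid (log2 change -1.49, SE 0.13), Elane 2.40-fold lower (-1.26, SE 0.19) and Prtn3 1.35-fold lower (-0.43, SE 0.10), with adjusted p-values of 1.62e-07, 3.97e-05 and 0.00152 (edgeR). S100a8 and S100a9 changed by 0.57 (SE 0.78) and 0.31 (SE 0.80) on the log2 scale, with adjusted p-values of 0.551 and 0.765. Of all genes tested 66.6% passed here, and the authors had drawn the clusters from the same RNA, so the 3 calls of 5 say little about the granule genes as a set. The primary granule partners of a fixed list went with both directions, 2 of 9 tested higher and 7 lower in Myeloid, with a list median of -1.43 against -0.02 over all genes. Lyz2 (lysozyme) at 3.19 and Ctsc, the protease that activates the granule serine proteases, at 3.38 were higher in Myeloid, and Nkg7 at -3.21 and Cst7 (cystatin F) at -2.14 were higher in EMP. Cebpe, the gene of C/EBPε, was lower in Myeloid at -2.50 (SE 0.31; edgeR adjusted p = 8.14e-06), as were Kit at -2.45 and Myb at -2.57, 2 genes of progenitors.

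The balance within the primary set shifted as well. UMIs of Mpo per UMI of Prtn3 were 0.93, 1.04, 0.65, 0.76 and 0.59 in EMP of WT 1 to 5 and 0.63, 0.83 and 0.78 in the knockout. In Myeloid cells the ratios were 0.39, 0.36, 0.39, 0.26 and 0.26 in WT and 0.41, 0.48 and 0.43 in the knockout. The ratio was lower in Myeloid than in EMP in 8 of 8 libraries, and in EHT it was 0.34 to 0.55, lower than in EMP in 8 of 8. In Myeloid the WT and knockout ratios did not overlap, whereas in EMP they did.

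Genotypes were compared within Myeloid cells, where 3.26% of 11479 genes passed edgeR's quasi-likelihood test at an adjusted p below 0.1. Mpo stood at 141, 177, 205, 205 and 193 CPM across the WT libraries, in order, and at 417, 436 and 342 CPM in the knockout. All 3 knockout libraries lay above all 5 WT libraries, with means of 184 ± 26.7 and 398 ± 49.6 CPM (SD). Mpo rose 2.25-fold in the knockout (log2 change 1.17, SE 0.15; edgeR adjusted p = 0.00646), and passed in 8 of 8 fits that left out a library. With WT 5, the shallow WT library, as the only WT, the change was 1.12 (SE 0.19; edgeR adjusted p = 0.0195); every fit with WT 5 alone takes its spread from the 3 knockout libraries and assumes that the lone library varies as they do. With median depth as a covariate it was 1.05 (SE 0.26; edgeR adjusted p = 0.291), no longer a call. In these summed counts, more Mpo-bearing cells in a cluster and more Mpo per cell cannot be told apart.

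Prtn3 stood at 360, 491, 529, 785 and 745 CPM in WT and 1016, 907 and 789 CPM in the knockout, which did not overlap but came close at the edges. Its change of 0.69 (SE 0.23) had an edgeR adjusted p of 0.194. Elane stood at 7.85, 8.64, 1.12, 9.10 and 12.3 CPM in WT and 17.0, 16.4 and 9.03 CPM in the knockout, which overlapped, with a change of 0.80 (SE 0.34; edgeR adjusted p = 0.294). Of the 3 measured primary genes in Myeloid, Mpo alone passed; that Mpo changed by more than Prtn3 was not tested. Ctsg had 1 UMI in 1052 WT cells and 45 UMIs in 1345 knockout cells, 34 of them in a single cell, and did not pass the filter.

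The late genes had a wider spread in Myeloid cells. S100a8 stood at 206, 179, 0, 0.243 and 19.0 CPM across the WT libraries and at 486, 431 and 272 CPM in the knockout. S100a9 gave 94.4, 113, 0, 0.121 and 11.7 CPM in WT and 304, 239 and 210 CPM in the knockout. The genotypes did not overlap for either gene, but WT ran from 0 to 206 CPM for S100a8, and the changes of 2.32 (SE 1.10) and 2.49 (SE 0.99) had edgeR adjusted p-values of 0.345 and 0.260. In the third knockout library 1 cell held 2452 of the 2492 S100a9 UMIs and 2196 of the 3222 S100a8 UMIs. The cell with the most late UMIs held 1116 of 1203 S100a9 UMIs in WT 1 and 455 of 1803 in WT 2. Without that cell of each library the S100a9 ranges of the genotypes overlapped. With WT 5 as the only WT library the values were 4.45 and 4.50, but 96.1% of the late UMIs of WT 5 lay in 1 cell and the lone library gives no spread of its own.

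Camp, the cathelicidin gene, had 1 UMI in all WT Myeloid cells and 55, 45 and 186 UMIs in the knockout libraries. Lcn2 had 2 UMIs in WT and 45, 30 and 48 in the knockout. Both passed edgeR's test (adjusted p = 0.0014 each), but it was their counts in the knockout that carried them past the filter. In CPM the pooled ratio of knockout to WT was 417 for Camp, with an exact 95% counting interval of 74.2 to 16522, and 89.6 for Lcn2, with 24.3 to 748. Ngp had 0 UMIs in WT and 29, 124 and 0 in the knockout, at least 74.3-fold higher against 3 counts over the WT group, and Ltf had 5 and 11 UMIs; neither was tested. These intervals cover counting error only, and the UMIs came from few cells: 1 cell held 185 of the 286 Camp UMIs, and 2 cells all 153 Ngp UMIs. Leaving out the cell with the most late UMIs in each library left Camp and Lcn2 below the filter, while Mpo kept 1.17 (SE 0.15; edgeR adjusted p = 0.00738).

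Camp and Lcn2 had to differ to be tested at all, so their calls are not counted as support, which leaves Mpo as the called gene among the other 5. Mpo, Prtn3, S100a8 and S100a9 of these 5 had every knockout library above every WT library. For S100a9 this rested on the top late cell of the third knockout library. Of all genes tested 3.07% had the same order, while 928 of 11479 lay wholly below. The fixed list of primary granule partners had 4 of 10 higher and 0 lower, with a median change of 0.82 against -0.01 over all genes; Ms4a3 rose by 2.22 (SE 0.41) and Lyz2 by 0.91 (SE 0.21). Among 17 tested late neutrophil genes of 24 listed, 6 were higher, such as Stfa1 (a stefin, 1.96, SE 0.33) and Ifitm6 (1.80, SE 0.20), and 1 was lower, Hp (haptoglobin, -0.94, SE 0.21). In both lists, genes near 0 in WT could pass the filter through their knockout counts, as Camp and Lcn2 did. Which genes did so was not tested, so the counts and the median are descriptions. Of 12 regulators Csf2rb, a subunit of the receptors for GM-CSF and IL-3, rose by 0.88 (SE 0.17) and Runx1 fell by 0.43 (SE 0.10). By edgeR macrophage markers passed in 0 of 9, cell division genes in 0 of 8, erythroid genes in 0 of 6 and monocyte markers in 0 of 3; 1, 2, 1 and 0 of these had an unadjusted p below 0.05, and DESeq2 called 1, 0, 1 and 0. Cpa3, a mast cell protease, was higher by 2.79 (SE 0.46), with summed mast cell markers at 2.79 to 18.9 CPM in WT and 20.4 to 31.0 CPM in the knockout; their part in the granule gene values was not tested.

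In EMP, where 4.74% of 9172 genes passed, 2 of the 5 tested granule genes did. Prtn3 stood at 814, 668, 939, 822 and 812 CPM in WT and 1428, 1026 and 952 CPM in the knockout. It rose 1.45-fold (log2 change 0.54, SE 0.15; edgeR adjusted p = 0.0857). Every knockout library lay above every WT library, as for 4.32% of all genes tested, while 742 of 9172 genes lay wholly below. Mpo stood at 753, 692, 607, 624 and 479 CPM in WT and 901, 856 and 742 CPM in the knockout, which overlapped, and rose 1.37-fold (0.46, SE 0.13; edgeR adjusted p = 0.0888). Each of these calls held in 2 of 8 fits that left out a library, and neither held with depth as a covariate (adjusted p = 0.684 and 0.277) or with WT 5 alone (0.811 and 0.119).

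Elane stood at 29.1, 12.3, 10.2, 22.5 and 24.5 CPM in WT EMP and at 72.1, 22.1 and 20.2 CPM in the knockout, a change of 0.98 (SE 0.41; edgeR adjusted p = 0.238). S100a8 gave 87.2, 15.6, 0, 64.7 and 86.8 CPM in WT and 581, 8.29 and 168 CPM in the knockout, and S100a9 224, 17.7, 17.9, 50.2 and 60.8 CPM in WT and 280, 11.1 and 6.89 CPM in the knockout. Both overlapped between genotypes, with knockout libraries among the highest and the lowest (edgeR adjusted p = 0.207 and 0.842). Of the other genes in EMP, Camp had 56 UMIs in WT, all in 1 cell of WT 1, and 12 in the knockout, Lcn2 had 13 and 11, Ngp 0 and 13, and Ltf 0 in both. Of 114 Ctsg UMIs in EMP, 109 lay in 1 cell of WT 4.

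Primary granule partners in EMP had 5 of 9 higher in the knockout, with a median of 0.58 against 0.00 over all genes, among them Ms4a3 (1.26, SE 0.23), Nkg7 (0.92, SE 0.14), Lyz2 (0.73, SE 0.15) and Cst7 (0.68, SE 0.16). Late neutrophil genes had 0 of 8 higher and 1 lower, Hp at -0.93 (SE 0.21), with 3 at an unadjusted p below 0.05 and 1 call by DESeq2. Regulators passed in 0 of 11 by edgeR and by DESeq2, with 3 at an unadjusted p below 0.05. Erythroid genes moved with genotype in the same cells: 4 of 6 erythroid genes were higher, Hba-a1 by 3.98 (SE 0.55), and the summed erythroid level was 28.1 to 179 CPM in WT and 269 to 1381 CPM in the knockout. Cpa3 was also higher, by 1.72 (SE 0.28), as was the monocyte gene F13a1 by 0.90 (SE 0.20), while the megakaryocyte gene Gp9 fell by 1.99 (SE 0.41) and the cell division gene Cdk1 by 0.41 (SE 0.11). The part of these in the Mpo and Prtn3 values was not tested.

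Outside EMP and Myeloid the granule genes gave little. In EHT 0.127% of genes passed by edgeR; 2 granule genes were testable and 0 passed, with Mpo at 0.06 (SE 0.26) and Prtn3 at -0.01 (SE 0.15), unadjusted p-values of 0.807 and 0.967 and 0 calls by DESeq2. The Mpo range in EHT was 41.8 to 96.4 CPM in WT and 51.3 to 75.0 CPM in the knockout. In Megakaryocytes, where 0.206% passed, 0 of 2 did by edgeR and by DESeq2; Mpo changed by 2.07 (SE 0.77) with an unadjusted p of 0.0211. In venous endothelium 0.0164% of genes passed, and S100a8 was 1 of the 4 granule genes tested and the only one called, at 4.01 (SE 0.57; edgeR adjusted p = 0.0909). As for Camp and Lcn2 in Myeloid, its counts in the knockout carried it past the filter, so this call is not counted as support. Over all endothelium S100a8 was at 0.224, 0.262, 0, 0.0165 and 0.307 CPM in WT and 2.76, 2.55 and 1.07 CPM in the knockout. The call in vEC was kept in 1 of 8 fits that left out a library and was lost with depth as a covariate and with WT 5 alone (adjusted p = 1.00 in both). At least 3 UMIs of the primary or of the late genes were found in 0 of 6270 WT and 0 of 4579 knockout endothelial cells thinned to 5000 UMIs. The part of RNA from other cells in these low counts was not tested.

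The difference between genotypes was then set against the cluster. For 11070 genes the change in Myeloid minus that in EMP was tested with edgeR, and 0.867% passed. Camp was the 1 granule gene of 8 that passed, at 9.09 (SE 1.59; edgeR adjusted p = 0.0319), and rested on the single cells named here: its value ran from 1.3 to 15.86 over fits without 1 library, with adjusted p up to 0.990, and it was not testable without the top late cell of each library. For Mpo the difference was 0.71 (SE 0.18; edgeR adjusted p = 0.120), for Prtn3 0.19 (SE 0.19; adjusted p = 0.792), for S100a8 1.23 (SE 1.44; adjusted p = 0.837) and for S100a9 3.32 (SE 1.28; adjusted p = 0.374). The larger fold of Mpo in Myeloid than in EMP did not pass the test of the difference.

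The balance of late to primary transcripts was read as the late share, the UMIs of the 6 late genes as a percentage of those of all 10. In Myeloid cells it was 37.1, 30.2, 0, 0.0486 and 3.13% in WT 1 to 5 and 35.8, 33.6 and 30.6% in the knockout. The knockout libraries lay close together, whereas WT spanned the range from 0 to above the knockout. In EMP it was 17.2, 2.40, 1.14, 7.17 and 10.2% in WT and 26.8, 1.01 and 9.24% in the knockout, with full overlap. The share was higher in Myeloid than in EMP in 5 of 8 libraries. It was at most 3.74% in EHT. In endothelium it was 25.5, 21.2, 10.5, 2.70 and 9.62% of few UMIs in WT and 30.8, 28.0 and 37.4% in the knockout. No test was made of this share, which is a score over genes chosen with earlier results known.

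**Figure D2:**
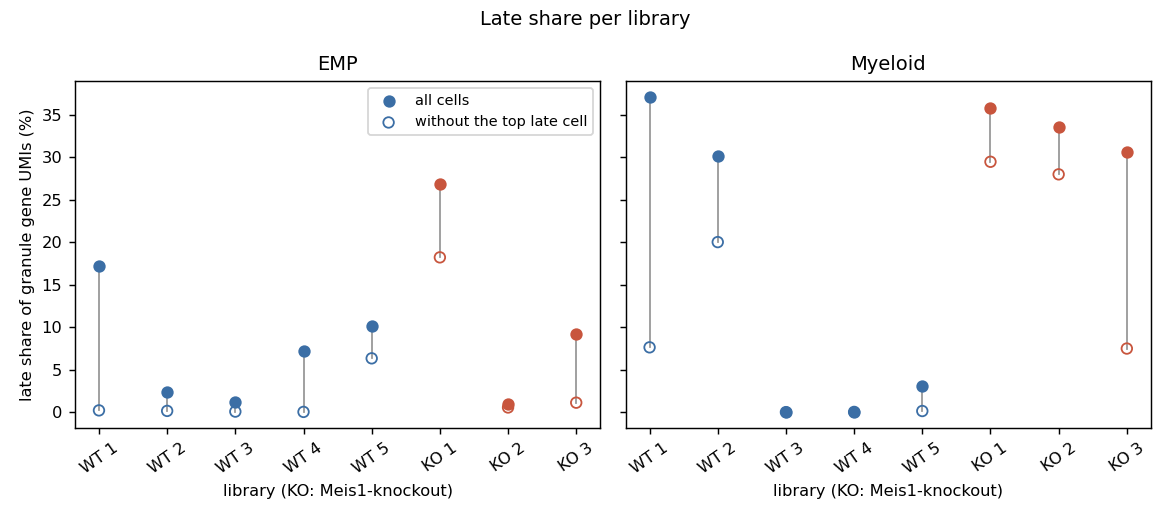
Late share of granule gene UMIs (%) per library in EMP and Myeloid cells, with WT in blue and Meis1-knockout (KO) in red; filled points use all cells and open points leave out the 1 cell with the most late UMIs. In Myeloid, WT 1 drops from 37.1 to 7.62% and the third knockout library from 30.6 to 7.48% without that cell.

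Single cells set these shares. In Myeloid the cell with the most late UMIs held 86.1% of the late UMIs of WT 1, 42.5% of WT 2, 96.1% of WT 5 and 25.4, 23.7 and 82.0% of those of the knockout libraries. Without it the shares became 7.62, 20, 0, 0.0248 and 0.130% in WT and 29.5, 28.0 and 7.48% in the knockout, and the genotypes overlapped. In EMP the top cell held from 42.3 to 99.7% of a library's late UMIs. Scrublet called none of these top cells a doublet.

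Primary and late transcripts were distributed differently over cells. In Myeloid, 50% of Mpo UMIs lay in 173 of 2397 cells and 50% of Prtn3 UMIs in 269, against 7 cells for S100a8, 4 for S100a9, 2 for Lcn2 and 1 for Camp and for Ngp. In EMP the counts were 89 and 79 of 747 cells for Mpo and Prtn3, and 4 and 2 for S100a8 and S100a9. Elane lay between, with 34 cells in Myeloid and 9 in EMP.

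**Figure D3:**
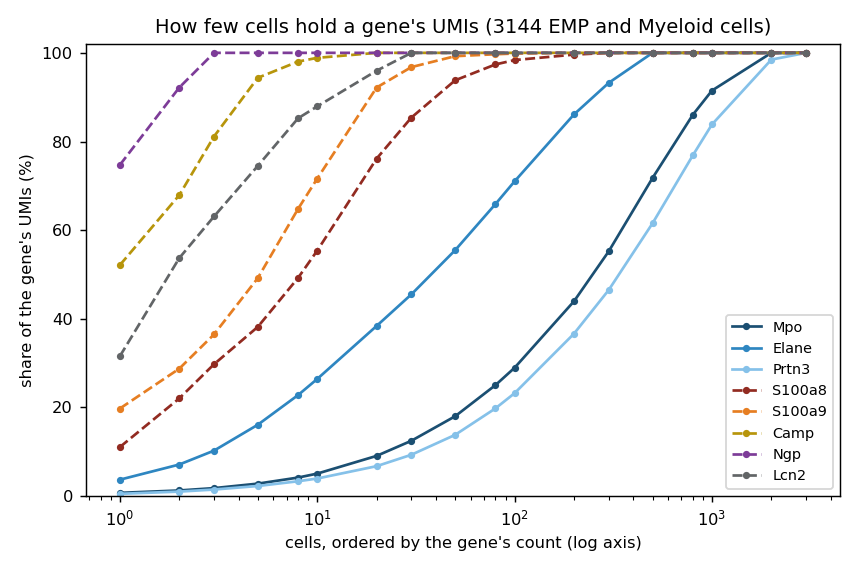
Share of a gene's UMIs (%) held by its top cells, ordered by that gene's count (log axis), over the 3144 EMP and Myeloid cells; solid lines are primary and dashed lines late genes. The late genes reach most of their UMIs within 20 cells, whereas 20 cells hold 9.07% of Mpo and 6.75% of Prtn3 UMIs.

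Cells with the rarer late genes also had the commoner ones. At 3 or more UMIs per gene in EMP and Myeloid, 1499 cells had Mpo and 2150 had Prtn3, with 1426 having both. All 120 cells with Elane had Mpo and Prtn3. S100a8 was found in 137 cells, S100a9 in 57 and both in 49, and 111 of the 137 also had Mpo. All 8 cells with Camp had S100a8, S100a9, Mpo and Prtn3, as had all 8 with Lcn2, and Camp and Lcn2 shared 6 cells. All 3 cells with Ngp had Camp, Lcn2, S100a8 and S100a9, and the only cell with 3 Ltf UMIs was one of these. That cell, from Myeloid of the second knockout library, held 807 S100a8, 797 S100a9, 124 Ngp, 37 Camp, 14 Lcn2 and 3 Ltf UMIs beside 43 Mpo, 50 Prtn3 and 7 Elane UMIs. The cell with the most late UMIs, in the third knockout library, held 2196 S100a8, 2452 S100a9, 185 Camp and 47 Lcn2 UMIs with 0 Ngp, beside 98 Mpo and 159 Prtn3.

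S100a8 and S100a9 did not always appear together. Among 73 cells with at least 20 UMIs of the pair, 20 had S100a8 alone and 3 S100a9 alone, and the median cell had 84.6% S100a8. Late transcripts without primary ones were rare. Of 748 knockout Myeloid cells with at least 10 granule UMIs, 566 had primary UMIs alone, 143 were up to 50% late, 39 were over 50% late and 2 of these had no primary UMI. Of such WT Myeloid cells the counts were 462, 23, 8 and 0. In EMP they were 271, 18, 2 and 0 of 291 in WT and 148, 29, 3 and 0 of 180 in the knockout. Within libraries the Spearman correlation of primary and late UMIs over thinned cells was weak, 0.10 to 0.37 in EMP and 0.02 to 0.22 in Myeloid, and is given only as a description.

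Cells were sorted into classes after each was thinned to 5000 UMIs, which removes the difference in depth between libraries. Late-positive cells had 3 or more UMIs of the late genes, and primary-only cells had 3 or more of the primary and fewer than 3 of the late genes. In Myeloid, late-positive cells were 5 of 282, 6 of 355, 0 of 35, 0 of 178 and 1 of 201 in WT 1 to 5, or 1.77, 1.69, 0, 0 and 0.498%. They were 21 of 299, 24 of 638 and 15 of 404 in the knockout, or 7.02, 3.76 and 3.71%. All knockout libraries lay above all WT libraries, with means of 0.792 ± 0.882 and 4.83 ± 1.90% (SD), a description without a test. Taken as 3 counts, a count of 0 allows up to 8.57% of the 35 cells of WT 3 and 1.69% of the 178 cells of WT 4, and the upper ends of the exact 95% Clopper-Pearson intervals were 10.0% and 2.05%.

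Primary-only cells were 22.3, 23.7, 34.3, 48.3 and 50.2% of Myeloid cells in WT and 53.8, 48.1 and 49.5% in the knockout, which overlapped. In EMP, primary-only cells were 48.6 to 65.8% in WT and 51.0 to 53.1% in the knockout, and late-positive cells 9 of 390 and 9 of 357. EHT had 42 of 325 primary-only cells in WT and 21 of 160 in the knockout, 12.9 and 13.1%, and 0 late-positive cells in either, which allows 0.923 and 1.88% when taken as 3 counts. With no thinning, 3.42% of WT and 14.7% of knockout Myeloid cells had an S100a8 UMI, against 0.318% and 2.33% of endothelial cells. Thinned, the Myeloid shares were 1.81 and 8.58% and the endothelial ones 0.0638 and 1.18%.

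**Figure D4:**
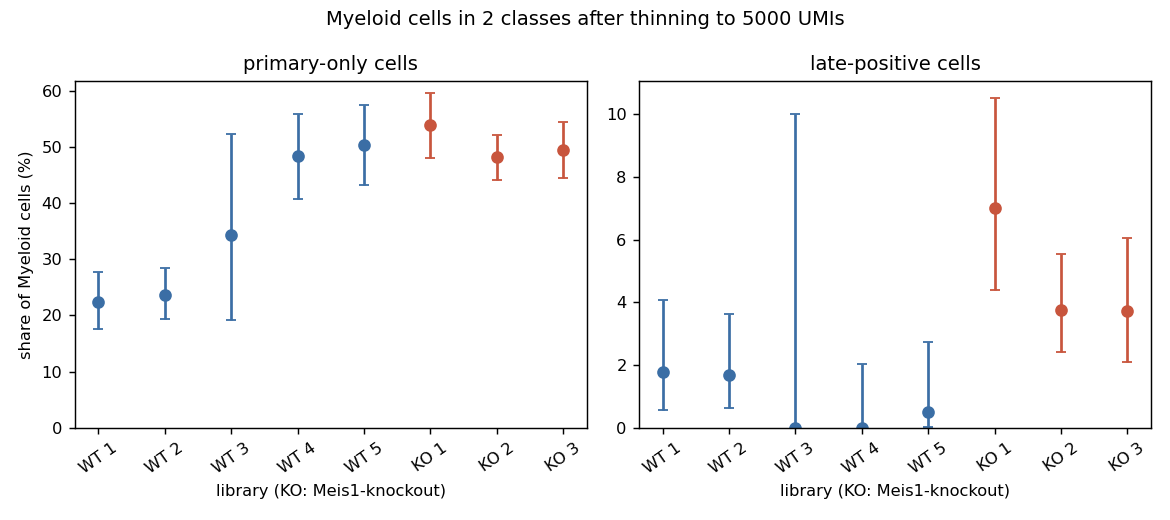
Share of Myeloid cells (%) that were primary-only (left) or late-positive (right) per library after thinning to 5000 UMIs, with exact 95% Clopper-Pearson intervals of counting error; WT in blue and Meis1-knockout (KO) in red. The late-positive shares of the 3 knockout libraries, 3.71 to 7.02%, lie above those of the 5 WT libraries, 0 to 1.77%, while the primary-only shares overlap.

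What accompanied the late genes was tested in the 3 knockout libraries, the only ones with 10 or more cells in both classes, on 60 late-positive and 668 primary-only Myeloid cells. Of 9208 genes 3.19% passed edgeR's test with the library as a block. Granule genes define the classes, so their values are a description: Mpo was at 654, 1335 and 600 CPM in late-positive and 605, 673 and 547 CPM in primary-only cells, and Elane at 86.7, 93.2 and 43.5 against 16.6, 22.9 and 12.8 CPM. In summed counts, late-positive cells therefore held Mpo and Elane above the level of primary-only cells in each library. Not each cell did: 3 of 21, 4 of 24 and 2 of 15 late-positive cells had fewer than 3 primary UMIs.

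Among the fixed primary granule partners 9 of 10 rose in late-positive cells and 0 fell, with a median of 1.60 against -0.01 over all genes. Ms4a3, a membrane protein of granulocyte-monocyte progenitors, was at 313, 366 and 248 CPM in late-positive and 57.6, 33.1 and 47.8 CPM in primary-only cells, a rise of 2.77 (SE 0.15; edgeR adjusted p = 5.09e-12). Mgst1 rose by 2.51 (SE 0.30), Lyz2 by 1.27 (SE 0.09) and Srgn (serglycin, the proteoglycan that packs granule proteases) by 1.12 (SE 0.10). Fcnb (ficolin B) was at 10.6, 17.3 and 32.6 CPM against 0, 0.171 and 0.617 CPM, and Prss57, a granule serine protease, at 22.8, 36.8 and 15.2 against 1.77, 0.683 and 0.617 CPM. These 2 genes were chosen from the list after their values were seen. Their counts in late-positive cells carried them past the filter, so the count of 9 is a description.

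Of 16 tested late neutrophil genes 11 rose and 0 fell, with a median of 2.26. Counts in late-positive cells carried genes such as Stfa2l1, Stfa3 and the regulator Cebpe past the filter. They had to be higher there to be tested, so this count and median are a description. The stefins led: Stfa2l1 was at 92.8, 232 and 309 CPM against 0.443, 1.03 and 0.154 CPM (8.61, SE 0.29), Stfa2 rose by 8.29 (SE 0.31), Stfa3 by 7.45 (SE 0.17) and Wfdc21 by 6.91 (SE 0.36). By the rule for the strongest genes, Gm5483 at 7.73 (SE 0.13) and BC100530 at 4.56 (SE 0.12), both of the stefin family, rose as well. The regulator Cebpe was at 73.0, 67.2 and 41.3 CPM in late-positive and 4.87, 2.73 and 0.617 CPM in primary-only cells, a rise of 4.54 (SE 0.32; edgeR adjusted p = 9.19e-10). Csf2rb rose by 0.83 (SE 0.14) and Runx1 fell by 0.61 (SE 0.13), and the other 9 of 12 tested regulators did not pass, among them Gfi1 at 2.47 (SE 0.91; adjusted p = 0.218), Cebpa at 0.17 (SE 0.37) and Spi1 at -0.09 (SE 0.09).

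**Figure D5:**
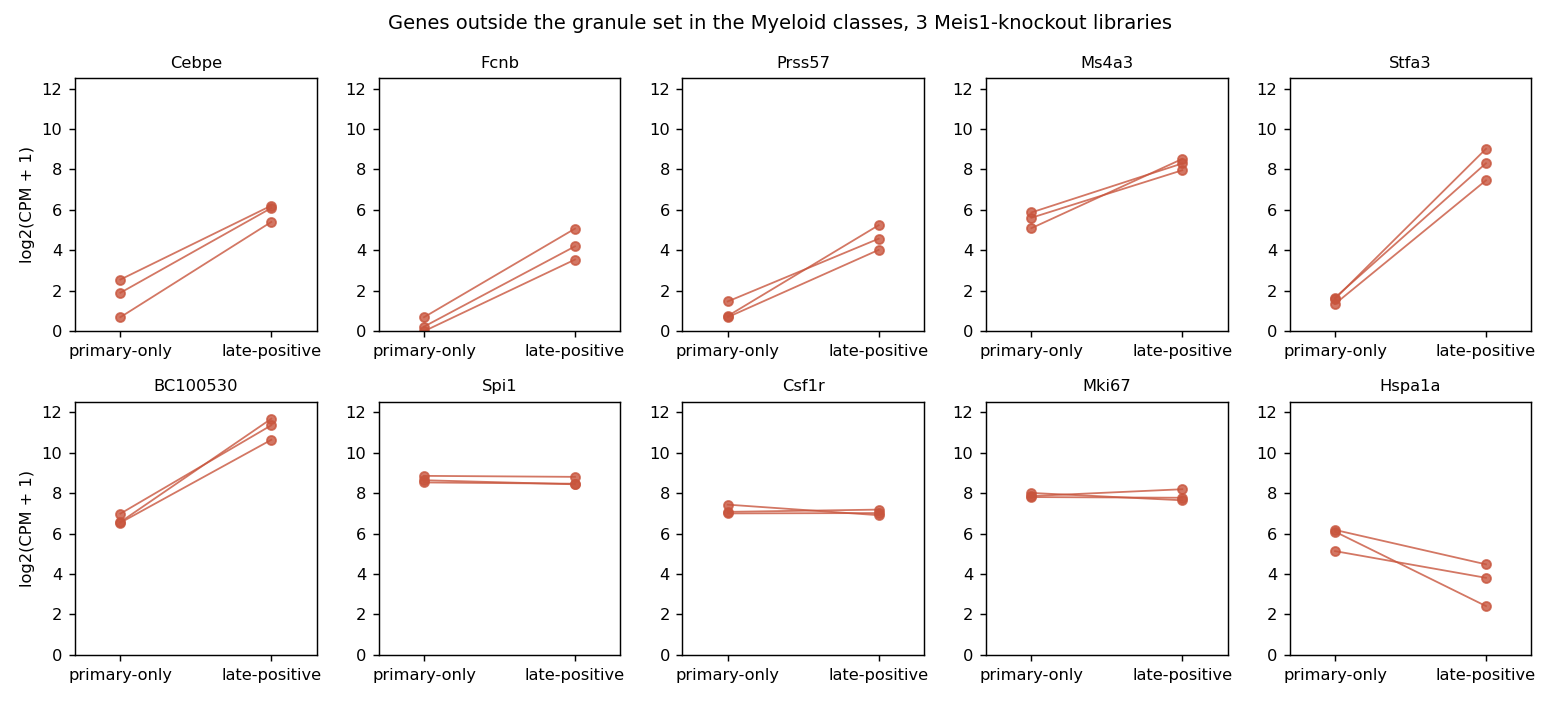
Levels as log2(CPM + 1) of 10 genes outside the granule set in primary-only and late-positive Myeloid cells, with 1 line for each of the 3 Meis1-knockout libraries. Cebpe, Fcnb, Prss57, Ms4a3, Stfa3 and BC100530 are higher in late-positive cells of all 3 libraries, Hspa1a is lower, and the fitted changes of Spi1, Csf1r and Mki67 are -0.09, -0.10 and 0.01.

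Genes that fell in late-positive cells by the same rule were Hspa1a at -2.08 (SE 0.29) and Hspa1b at -1.97 (SE 0.24), both heat-shock proteins, Zfp202 at -1.60 (SE 0.31), Hpgd, a prostaglandin dehydrogenase, at -1.31 (SE 0.25), and Cox4i2, a subunit of cytochrome oxidase, at -1.24 (SE 0.13). The 8 cell division genes passed in 0 cases by edgeR or DESeq2 and 0 had an unadjusted p below 0.05, with Mki67 at 0.01 (SE 0.12). Of 7 macrophage genes 4 were higher in late-positive cells and 0 lower by edgeR, with 1 of 7 called by DESeq2: C1qa at 0.53 (SE 0.12), C1qb at 0.41 (SE 0.10), C1qc at 0.39 (SE 0.11) and Adgre1 at 0.80 (SE 0.23), and Csf1r changed by -0.10 (SE 0.13). The monocyte gene F13a1 rose by 0.86 (SE 0.10), the mast cell gene Cpa3 fell by 3.66 (SE 0.66), and Hba-a1 at 2.43 (SE 0.70) and Emcn at 1.11 (SE 0.24) were higher. Of the 72 late-positive Myeloid cells of all libraries 4 were called doublets, 5.56%, and the part of doublets in these markers was not tested.

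Antibody tags were a readout that the classes did not use. CD43, a leukocyte sialoglycoprotein, averaged 400, 266 and 104 counts per late-positive cell and 270, 204 and 76.3 per primary-only cell in the knockout libraries, and CD44, an adhesion receptor, 697, 577 and 196 against 440, 456 and 139. Both were higher in 3 of 3 libraries, by 0.47 ± 0.09 and 0.50 ± 0.16 (log2, SD), each with p = 0.25 by an exact two-sided sign-flip permutation test, the smallest that 3 libraries allow, and an adjusted p of 0.75. CD117, CD41, CD27 and CD45.2 had mean log2 ratios of -0.38, 0.40, 0.35 and -0.82 with signs that differed between libraries, and 0 of the 6 tags had p below 0.05.

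Likeness between genes was read over the 79 sums of library and cell type. The genes outside the set most like Mpo, by Spearman correlation of log2(CPM + 1) among 7836 genes, were Lst1 (0.88), Tyrobp (0.88), Plekhj1 (0.87), Ptprcap (0.85) and Rac2 (0.85). Within the set Mpo gave 0.87 with Prtn3, 0.71 with Elane and 0.13 with Ctsg, and 0.59, 0.49 and 0.47 with the late genes S100a9, Lcn2 and S100a8, 0.34 with Camp, 0.24 with Ngp and 0.096 with Ltf. Those most like S100a8 were Mtch2 (0.69), BC100530 (0.67), Alg8 (0.66), Tufm (0.66) and Cdc34 (0.66), and within the set S100a8 gave 0.75 with S100a9 and 0.56 with Lcn2. Its values with primary Elane (0.57) and Prtn3 (0.51) were above those with late Camp (0.50), Ngp (0.37) and Ltf (0.030), so likeness did not follow the primary and late sets. The sums share libraries and depth, so these values are descriptions.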

How the data were processed

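The deposited table held UMI counts per gene and cell and raw antibody tag counts, which the authors had made with Cell Ranger 3.0.2 on mm10, per the submitters' processing notes, keeping cells with over 2000 genes and under 10% mitochondrial reads. Clusters and their names were the authors' own. Total UMIs per library ran from 20484881 to 79429129. All intervals are for counting error alone.

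Raw counts were summed per library and cell type, with sums of at least 10 cells, and tested with edgeR 4.0.16 (TMM, filterByExpr, quasi-likelihood F test, two-sided, Benjamini-Hochberg over all genes tested, adjusted p below 0.1) in R 4.3.3. DESeq2 1.42.0 was an alternative. EMP against Myeloid, its interaction with genotype and the class comparison had the library as a block. Libraries were the replicates; the labels do not say that they are separate litters, so p-values measure the spread between pools. Levels are CPM of a sum. Permutation tests were exact (scipy 1.17.1). Cells were thinned at random with a fixed seed. Doublets were called with Scrublet (scanpy 1.11.5), marking 83 of 15168 cells, and were kept except in an alternative.

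The 10 genes, the gene lists and the motifs were chosen with earlier results of these data known. Named were the 10 genes, up to 4 called examples per list with mean log2 CPM of at least 3, the 5 largest rises and 5 largest falls between the classes with mean log2 CPM of at least 5 and one direction in every library, and the 5 genes most like Mpo and S100a8 with a mean of at least 10 CPM. Genes named outside that rule are Fcnb and Prss57, and regulators and markers given for their lack of a call. Only 3 of the fits were tested on simulated data: of 200 genes changed by 1.5 on the log2 scale, 89% were found for genotype in Myeloid, 96% for Myeloid against EMP and 81% between the classes. Of the genes called there, 9.18, 11.5 and 11.5% had not been changed. The other fits were not simulated. Replicate numbers did not pair the libraries, with correlations of deviations of -0.147, 0.129 and 0.0268 in Myeloid and 0.160, 0.00973 and 0.148 in EMP.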

Additional observations from a re-analysis of the deposited data

Results flagged for a closer look

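Of 23 groups of 5 WT libraries examined, 3 had a library far from the others, where chance gives about 1 in 20. Ctsg in EMP reached 19.9 CPM in WT 4 and at most 0.466 CPM in the other WT libraries. S100a9 in EMP reached 224 CPM in WT 1, with the next library at 60.8 CPM. Camp in EMP was at 18.5 CPM in WT 1 and 0 in the others. The fitted genotype effect on Camp differed between Myeloid and EMP by 9.09 on the log2 scale (edgeR adjusted p = 0.0319). It rested on single cells: 1 cell held all 56 Camp UMIs of WT EMP. The edgeR adjusted p reached 0.990 over fits without 1 library, and the DESeq2 adjusted p was 0.9999.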

How the results depend on the processing

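Over 120 single-gene results and 1853 alternatives, 1594 kept direction and side of the threshold, 193 lost a call, 38 gained one and 28 reversed; causes were not tested. Granule genes called in Myeloid, 3 of 7, became 5 without the count filter, 5 with WT 5 as the only WT, 7 with the replicate block, and 1 without the top late cell of each library, an alternative chosen after seeing the data; leaving out a library gave 3 to 5, with 5 without WT 5 or knockout library 3. In EMP, 2 became 0 with Bonferroni, with depth as a covariate and with WT 5 only, 4 without filter and 4 with the block, and 0 to 2 without a library. In Megakaryocytes 0 became 2 without filter and 2 with the block. In vEC 1 became 0 with Bonferroni, depth or WT 5 only, 3 with DESeq2, 4 without filter and 4 with the block; leaving out a library gave 0 to 4, the 4 without WT 5. Myeloid against EMP, 3, became 6 in knockout libraries only. The interaction count, 1, became 0 with Bonferroni, with DESeq2 or without the top cell (added), 6 without filter, 2 without doublets and 1 to 3 without a library. Without a library, all genes called ran from 44 to 1421 in Myeloid (main fit 374) and 44 to 828 in EMP (435). They ran from 0 to 1647 in vEC (2), 0 to 118 in Megakaryocytes (16) and 31 to 134 for the interaction (96). Counts of granule genes stand beside these totals and are not read as a result about those genes. EHT stayed at 0, as did the order of cell types, in all alternatives run. For the order, the smallest sign-flip p was 0.00781 with all libraries and 0.0156 without a library. Over 90 pairs an adjusted p below 0.1 needs many pairs at that floor, so the order says little on stability. The tags stayed at 0 as well, which was fixed in advance, since 3 libraries allow no sign-flip p below 0.25. Genes called between the classes, 294, became 73 with Bonferroni, 119 with DESeq2, 470 without filter, 128 at a class limit of 5, 178 when thinned to 3000, 600 with at least 5 cells (added) and 137 to 334 without a library, the 137 without knockout library 1.

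Leaving out a library moved the knockout minus WT difference in Myeloid from 15.7 to 25.0 percentage points for the late share, 2.95 to 4.60 for late-positive and 11.4 to 18.3 for primary-only cells. In EMP the late share difference of 4.73 was -0.043 without S100a8 and S100a9 and -2.49 to 10.4 without a library, that of late-positive cells 0.513 and -0.624 to 1.20, both negative without knockout library 1; that of primary-only cells was -5.79, with 4.17 at a class limit of 5, 1.75 when thinned to 3000 and -8.14 to -3.85 without a library.

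Reversed values belonged to results without a call, apart from Hba-a1. S100a9 in EMP was -0.093 with the replicate block and -2.96 to 1.45 without a library, negative without knockout library 1. Mpo in EHT was -0.20 with depth, -0.15 with WT 5 only, -0.021 with the block and -0.064 to 0.29 without a library. Prtn3 in EHT was 0.028 without doublets and -0.10 to 0.079 without a library. Between Myeloid and EMP, S100a8 was -0.055 in WT libraries only, and S100a9 -1.15 in WT only, -0.38 with DESeq2 and -0.18 to 0.85 without a library. The Elane interaction was 0.098 with DESeq2 and -0.43 to 0.48 without a library. Hba-a1 between the classes was -0.29 without doublets, -0.954 at a class limit of 5 and -0.58 to 3.81 without a library, negative without knockout library 3. CD41 was -0.17 as a centred log ratio, -0.61 at a class limit of 5 and -0.31 to 0.97 without a library, CD27 -0.089 as a centred log ratio, and CD45.2 -1.39 to 0.20 without a library. The replicate numbers do not pair the samples, so the block counts are given as values only. Depth and genotype were aligned apart from WT 5, and Ctsg, Ngp and Ltf had too few UMIs to test.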
